A study of Mus musculus with 4 samples.

Results

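The genes described here build and shape the actin cortex, the thin layer of filaments under the plasma membrane that a macrophage uses to spread, crawl and engulf particles. The set was fixed as a list of 42 gene symbols: actins, the Arp2/3 complex, nucleators, capping, bundling and adhesion proteins, and linkers to the membrane. Of these, 41 had a row in the deposited table of 34745 genes, and all 41 were among the 11841 genes that passed the filter on low counts. Diaph1, a formin gene, is not analysed here. The cells were thioglycolate-elicited peritoneal macrophages from wildtype C57BL/6 mice, taken 3 days after injection of 2 ml of 3% thioglycolate and grown as adherent cells. All 4 libraries came from cells given LPS, a bacterial membrane component that activates Toll-like receptor 4, with 4 hours of exposure to 100 ng/ml, so there is no comparison with resting cells. In 2 of the samples MB-3, which is used to inhibit the histone acetyltransferase GCN5, had been added first at 50 µM, and in the other 2 its solvent DMSO. The series title speaks of bone marrow-derived macrophages, while the labels of every sample give peritoneal macrophages, which is followed here. The labels give no age of the mice and do not say whether replicates came from separate mice or cultures, so the p-values rest on a spread among samples that may be technical only.

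Actin exists in cells as single subunits and as filaments, and the balance between them is set by proteins that hold, deliver, cap, cut or bundle actin. The Arp2/3 complex starts new filaments as branches on old ones after activation by WASP or WAVE proteins, formins and Ena/VASP proteins lengthen filaments, and cofilin takes old ones apart. In macrophages these steps drive the leading edge, podosomes and the phagocytic cup, and proteins such as moesin and MARCKS tie the network to the membrane.

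The libraries held 15598531 to 21320618 counts. The macrophage gene Lyz2 stood at 21690 to 22640 CPM (counts scaled to the library total) with DMSO and at 27330 to 28390 with MB-3. All 7 macrophage markers were detected, but they did not move together. Of the 8 rows tested for them, 4 were higher with MB-3 and 2 lower at an edgeR adjusted p below 0.05. Among all genes tested, 16.9% were higher and 20.2% lower. The neutrophil list summed to 21.8 and 22.9 CPM with DMSO and to 11.9 and 10.0 with MB-3, nearly all of it S100a8, while its markers Ly6g and Elane had 0 counts. The fibroblast list, led by Dcn, summed to 51.7 and 112 CPM in DMSO replicates 1 and 2 and to 68.0 and 138 CPM in MB-3 replicates 1 and 2. The smooth muscle list, led by Acta2, summed to 11.8 and 22.8 CPM with DMSO and 15.0 and 28.8 with MB-3, and the mesothelial list, led by Upk3b, to 3.66 and 10.1 and to 4.91 and 10.4 CPM. These stromal lists were thus higher in the second replicate of each group, and their part in the results was not tested. Lists of the other cell types summed to at most 8.04 CPM in any library, with Ighm, Cd3g, Klrb1c, Cpa3, Siglecf, Zbtb46 and Kdr as the most abundant B cell, T cell, NK cell, mast cell, eosinophil, dendritic cell and endothelial genes. In such bulk samples, fewer cells of a type and less RNA per cell cannot be told apart.

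With MB-3, several abundant actin genes were lower, among them Tmsb4x, Actb, Msn and Lcp1, while the abundant Cfl1 and Capg were not called, and Arpc1b, Coro1c, Vcl and Myh9 were higher. Of the 41 members tested, 16 were lower and 4 higher with MB-3, and 21 did not pass the threshold (quasi-likelihood test of edgeR, Benjamini-Hochberg adjusted p below 0.05 over all genes). Among all 11841 genes tested, 20.2% were lower and 16.9% higher, against 39.0% and 9.76% of the members. The median log2 fold change was -0.19 over the members and -0.0099 over all genes tested. In the range from 100 CPM upwards (group means averaged), a division made after the values were seen, 28.1% were lower and 28.4% higher, and of the 25 members in that range 12 were lower and 1 was higher. Of the 16 members below it 4 (25.0%) were lower and 3 (18.8%) higher, which is near the 19.0% and 15.1% of all genes below it. For 30 of the 41 members both MB-3 libraries lay on the same side of both DMSO libraries, a share of 73.2% against 70.8% of all genes tested, which is near the background. Together the members took 1.81% of all counts in each DMSO library, and 1.33% and 1.35% in the MB-3 libraries.

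**Figure D1:**
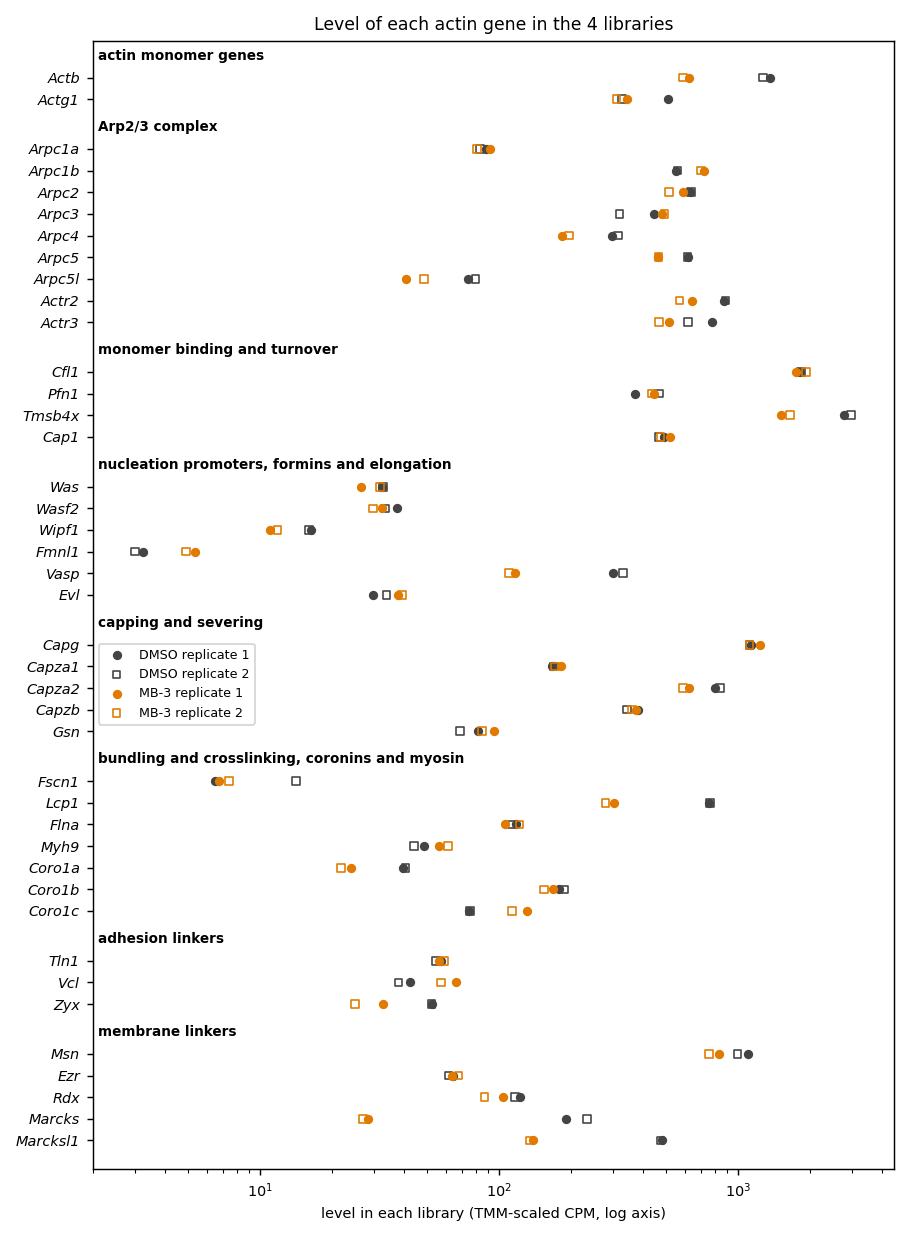
Level of the 41 tested actin genes in each of the 4 libraries, as TMM-scaled CPM on a log axis, grouped by the role of the protein. Circles are replicate 1 and squares replicate 2, dark for DMSO and orange for MB-3. Marcks, Marcksl1, Vasp and Lcp1 show the widest gaps between groups, and Fscn1 and Actg1 the widest gaps between the DMSO replicates.

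**Figure D2:**
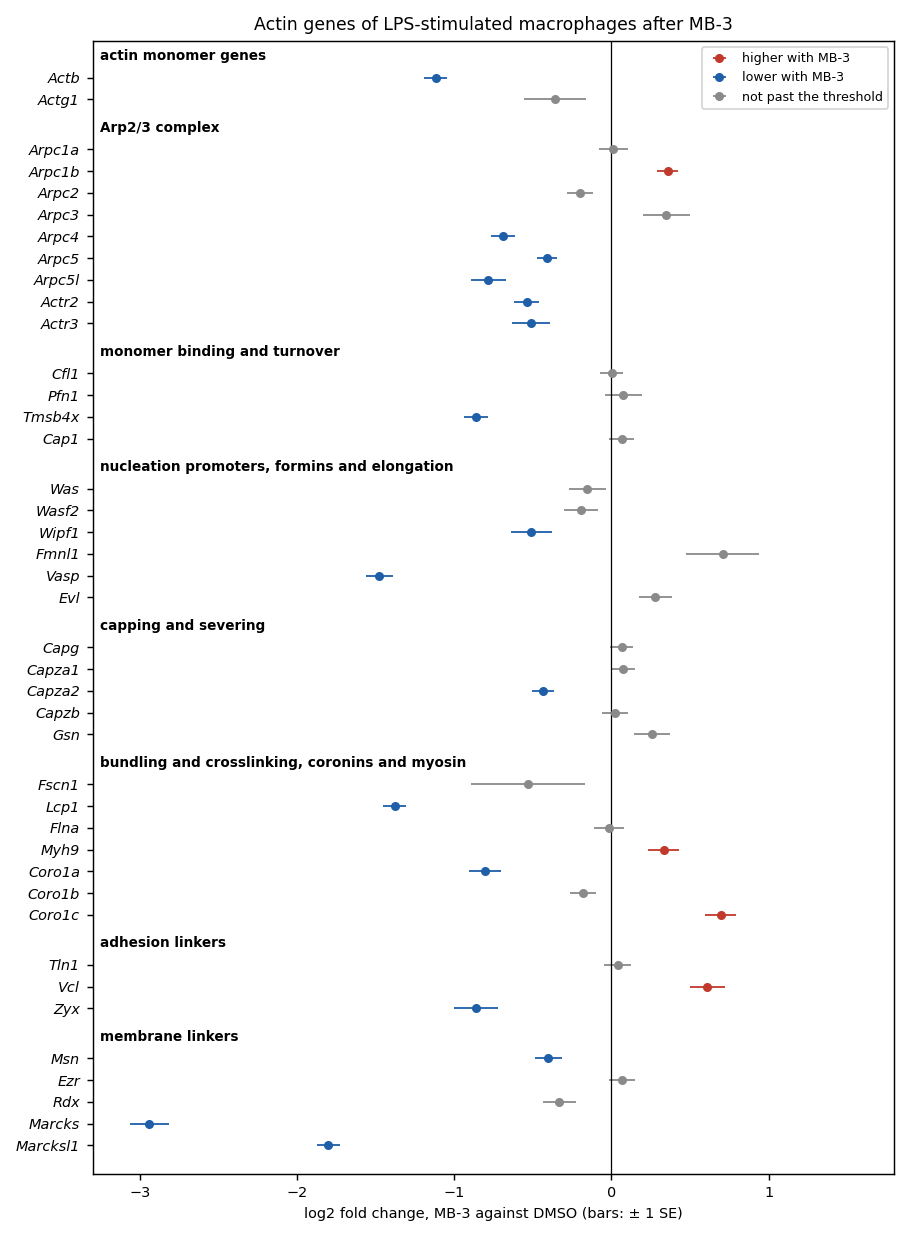
Log2 fold change of each tested actin gene with MB-3 against DMSO, with bars of 1 standard error, blue where lower, red where higher and grey where the test was not passed. The 5 changes beyond a log2 fold change of 1 are all falls, from -1.12 for Actb to -2.94 for Marcks.

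Compared per length, the actin monomer system led the list. Levels between genes are given as CPM per kilobase of merged exons, since the lengths behind the deposited FPKM values often differed from them. These lengths exceeded the merged exons for 36 of the 41 members and lay within 5% of them for 3, with Rdx in both counts. They were shorter for Cfl1 (0.404 times the merged exons), Vcl (0.638) and Evl (0.917). Per kilobase of merged exons Tmsb4x was highest, at a mean of 2092 with DMSO and 1150 with MB-3, followed by Cfl1 at 642 and 643. By deposited FPKM Cfl1 was at place 1 and Tmsb4x at place 2 in both groups. Per kilobase of merged exons the further places were as follows. Actb held place 3 of the 41 with DMSO, at 489.6, and place 5 with MB-3, at 226. Marcksl1 moved from place 6 to place 17, from 297 to 85.2, and Marcks from place 22 to place 34, from 52.4 to 6.84. At the low end Fscn1, Wipf1 and Fmnl1 held places 39 to 41 in both groups.

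Actb and Actg1 encode the 2 actins of non-muscle cells, which differ by a few residues near the amino terminus. Actb (ENSMUSG00000029580, chromosome 5 from 142903115 to 142906754) had 1357 and 1266 CPM with DMSO and 621 and 588 CPM with MB-3. It fell 2.17-fold, or by 1.12 on the log2 scale (SE 0.072, edgeR adjusted p = 1.07e-04). Both MB-3 libraries lay far below both DMSO libraries. Actg1 (chromosome 11 from 120345690 to 120348542) was at 509.5 and 326 CPM with DMSO and at 342 and 309.6 CPM with MB-3. One DMSO library was high and the other fell between the MB-3 libraries, so the groups overlapped. The difference of -0.36 on the log2 scale (SE 0.20, edgeR adjusted p = 0.206) was not called. That value rested on the DMSO replicates: it was -0.64 without DMSO replicate 2 (edgeR adjusted p = 2.24e-03) and 0.046 without DMSO replicate 1 (0.754). Actin, cofilin, profilin and thymosin genes have near-identical copies in the genome, and reads of such copies may have been split among them in counting, which leaves these levels uncertain. The annotated copy Actg-ps1 had 10 to 52 counts in a library.

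Actin genes are textbook targets of SRF, a transcription factor that binds a motif called the CArG box and that is held in check by free actin through its cofactors Mkl1 and Mkl2. Of 37 members with a promoter sequence in RefSeq (GRCm38.p6), 3 held a CArG box on either strand in the 250 bases before the start, and 1.62% of 27025 genes with such a sequence held it. These 3 promoters are shown because their genes went different ways with MB-3: Arpc4 fell, Vcl rose and Actg1 did not pass the test. Capitals mark the CArG box, which lies at -90 to -81 from the start in Actg1 (chr11:120348496-120348745, minus strand), at -250 to -241 in Arpc4 (chr6:113377863-113378112, plus strand) and at -227 to -218 in Vcl (chr14:20929148-20929397, plus strand).
Actg1: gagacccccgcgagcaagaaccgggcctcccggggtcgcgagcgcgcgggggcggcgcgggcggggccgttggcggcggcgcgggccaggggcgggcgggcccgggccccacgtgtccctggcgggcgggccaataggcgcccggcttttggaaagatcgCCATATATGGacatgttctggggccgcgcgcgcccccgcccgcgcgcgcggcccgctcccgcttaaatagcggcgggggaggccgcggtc
Arpc4: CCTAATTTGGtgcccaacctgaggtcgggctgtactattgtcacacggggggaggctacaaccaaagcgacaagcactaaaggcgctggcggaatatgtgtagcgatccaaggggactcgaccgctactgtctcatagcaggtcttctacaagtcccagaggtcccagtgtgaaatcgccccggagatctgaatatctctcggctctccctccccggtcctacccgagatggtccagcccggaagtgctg
Vcl: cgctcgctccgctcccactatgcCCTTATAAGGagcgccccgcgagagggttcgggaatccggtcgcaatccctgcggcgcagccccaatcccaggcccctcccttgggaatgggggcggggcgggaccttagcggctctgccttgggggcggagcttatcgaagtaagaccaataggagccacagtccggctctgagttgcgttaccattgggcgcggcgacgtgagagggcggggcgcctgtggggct
The genes and motifs shown were chosen after the matches were seen, and 6 motifs were searched in all, the NF-κB site in a stricter and a looser form. The box in Vcl shared 2 bases with a match of the looser NF-κB pattern, and otherwise no box shared a base with another motif. The stricter NF-κB site was found in Coro1c, Fmnl1 and Rdx, and in 5.67% of the 27025 genes. The looser one was found in these members and in Arpc5, Flna and Vcl, and in 8.23% of the 27025 genes. TGAGTCA or TGACTCA, the AP-1 motif, was found in Ezr and Zyx, and in 5.16%. The motif GGGCGG was found in 23 of the 37 members, of which 9 were lower, 4 higher and 10 not past the threshold. Of all 41 members tested 39.0% were lower and 9.76% higher, against 20.2% and 16.9% of all genes tested. Whether the motif goes with the calls was not tested. GGGCGG was found in 35.4% of the 27025 genes. These genes were not limited to those tested here, so they are not a background matched to the members. CCGGAAG, a motif of ETS factors, was found in 10 members and 7.83% of the 27025 genes. TGANNNNGC, a loose pattern that includes the motif of NRF2 but is not limited to it, was found in 13 members and 38.7%. No promoter of Actb or Marcks was in the table used. Srf itself was at 19.8 and 22.7 CPM with DMSO and 24.3 and 23.8 CPM with MB-3 (log2 change 0.18, SE 0.12, edgeR adjusted p = 0.280). Mkl1 was low, at 4.33 and 3.88 CPM with DMSO and 6.31 and 8.47 CPM with MB-3, and rose by 0.84 (SE 0.23, edgeR adjusted p = 0.0325). Mkl2 was at 8.94 and 7.76 CPM with DMSO and 9.27 and 14.2 CPM with MB-3, and was not called (0.49, SE 0.24, edgeR adjusted p = 0.156). Of the ETS factors that act with SRF, Elk1 fell from 22.4 and 25.6 CPM to 16.5 and 14.8 CPM (-0.62, SE 0.13, edgeR adjusted p = 0.0122), and Elk4 was not called (0.43, SE 0.16, edgeR adjusted p = 0.0728). These SRF genes are named after their values were seen.

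The proteins that bind single actin subunits split into a large fall and no call in the others. Tmsb4x encodes thymosin beta-4, which holds free actin in reserve. It was at 2769 and 2966 CPM with DMSO and 1506 and 1646 CPM with MB-3, 1.82-fold lower (log2 change -0.86, SE 0.076, edgeR adjusted p = 3.60e-04). This was the largest drop in CPM of any member. Cfl1, the gene of the filament-severing protein cofilin-1, was at 1819.6 and 1833 CPM with DMSO and 1738 and 1919.9 CPM with MB-3, so that the MB-3 libraries enclosed the DMSO libraries (log2 change 0.0018, SE 0.072). Pfn1, whose product profilin-1 delivers actin to growing ends, was at 369 and 467 CPM with DMSO and 445 and 436 CPM with MB-3 (0.08, SE 0.12). Cap1, which encodes a recycler of actin subunits, had a log2 fold change of 0.06 (SE 0.078). Per kilobase, Tmsb4x was 13.2 and 11.1 times as high as Pfn1 in the DMSO libraries and 5.94 and 6.62 times as high in the MB-3 libraries.

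The Arp2/3 complex is built of 2 actin-related proteins, Actr2 and Actr3, and of subunits encoded by Arpc1 to Arpc5, with Arpc1a and Arpc1b, and Arpc5 and Arpc5l, as alternatives for 2 of the places. Of its 9 genes, 5 (55.6%) fell, 1 (11.1%) rose and 3 did not pass. Among all genes tested, 20.2% were lower and 16.9% higher. Among genes from 100 CPM upwards, where most of the 9 lie, these shares were 28.1% and 28.4%. Actr2 was at 870.1 and 884 CPM with DMSO and 639.5 and 569 CPM with MB-3, a fall by 0.54 on the log2 scale (SE 0.079, edgeR adjusted p = 3.12e-03). Actr3 was at 780.3 and 616 CPM with DMSO and 514 and 466 CPM with MB-3, a fall by 0.51 (SE 0.12, edgeR adjusted p = 0.0199). The call of Actr3 depended on the libraries used, with an edgeR adjusted p of 0.0568 and a log2 fold change of -0.28 without DMSO replicate 1, and 0.0826 without MB-3 replicate 2.

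Among the smaller subunits Arpc4, a core subunit, went from 298 and 314 CPM to 183 and 196 CPM (log2 change -0.69, SE 0.077, edgeR adjusted p = 1.02e-03). Arpc5 went from 616 and 614 CPM to 460.1 and 464 CPM (-0.41, SE 0.064), and its less abundant alternative Arpc5l from 74.4 and 79.8 CPM to 40.98 and 48.7 CPM (-0.78, SE 0.11). In all 3 genes both MB-3 libraries were below both DMSO libraries. The groups lay apart, in either direction, for 70.8% of all genes tested. Arpc5l overlaps Rpl35, which had 432% of its counts, so its value is uncertain if counting did not use strand. Arpc2 was at 629 and 634 CPM with DMSO and 587 and 514 CPM with MB-3, and did not pass (-0.20, SE 0.083, edgeR adjusted p = 0.112). It passed with library totals as the only scaling (edgeR adjusted p = 0.0378) and in limma on log2(FPKM + 1) (0.0433).

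Arpc1b went the other way. It encodes the form of the subunit that predominates in blood cells, and was at 550.5 and 558 CPM with DMSO and 721 and 699 CPM with MB-3 (log2 change 0.36, SE 0.065, edgeR adjusted p = 7.04e-03). Arpc1a, its neighbour on chromosome 5 with 5453 bases and no other gene of the table between them, was at 87.9 and 83.2 CPM with DMSO and 91.5 and 81.2 CPM with MB-3 (0.013, SE 0.095). Per kilobase, Arpc1b was 3.14 and 3.37 times as high as Arpc1a with DMSO and 3.96 and 4.32 times as high with MB-3. Arpc3 was at 445 and 319 CPM with DMSO and 482 and 492 CPM with MB-3, with the DMSO libraries far apart. Its log2 fold change of 0.35 (SE 0.15, edgeR adjusted p = 0.121) became 0.66 without DMSO replicate 1 (edgeR adjusted p = 1.91e-03) and 0.14 without DMSO replicate 2 (0.276). It also passed with no filter on low counts (0.0400), with the replicate block (0.0342) and in DESeq2 (0.0372). Summed, the 9 genes made up 0.438% and 0.420% of all counts in the DMSO libraries and 0.359% and 0.3545% in those of MB-3.

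Of the 6 tested genes of filament start and elongation, Vasp stood apart in size. Vasp (ENSMUSG00000030403, chromosome 7 from 19256929 to 19271817) encodes a protein that speeds growth at filament ends and shields them from capping. It was at 299.7 and 331 CPM with DMSO and 116 and 110.0 CPM with MB-3, 2.78-fold lower (log2 change -1.48, SE 0.085, edgeR adjusted p = 6.61e-05). Evl, a relative of Vasp, was at 29.8 and 33.9 CPM with DMSO and 37.9 and 39.3 CPM with MB-3, and did not pass (0.28, SE 0.10, edgeR adjusted p = 0.0822). Per kilobase, Vasp was 11.3 and 10.97 times as high as Evl with DMSO and 3.46 and 3.14 times as high with MB-3.

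The activators of Arp2/3 on the list are Was and Wasf2. Was, the gene of WASP in blood cells, was at 32.3 and 32.7 CPM with DMSO and 26.6 and 31.9 CPM with MB-3 (log2 change -0.15, SE 0.12). Wasf2, which encodes the WAVE2 protein of the leading edge, was at 37.6 and 33.4 CPM with DMSO and 32.5 and 29.7 CPM with MB-3 (-0.19, SE 0.11). Neither passed the threshold. Wipf1, which encodes the partner that stabilises WASP, went from 16.4 and 16.1 CPM to 10.999 and 11.9 CPM (-0.51, SE 0.13, edgeR adjusted p = 0.0249). That call was lost when any of the 4 libraries was left out, with edgeR adjusted p from 0.06055 to 0.115, and in DESeq2 (0.135). The formin gene Fmnl1 was the least abundant member, at 3.26 and 3.01 CPM with DMSO and 5.36 and 4.91 CPM with MB-3. Its log2 fold change of 0.71 (SE 0.23, edgeR adjusted p = 0.0549) did not pass, although it did with upper-quartile scaling (0.0460) and in limma on log2(FPKM + 1) (0.0367).

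Capping protein closes the fast-growing end of filaments as a pair of an alpha and a beta chain. The alpha chain gene Capza2 was at 798 and 841 CPM with DMSO and 623 and 589 CPM with MB-3 (log2 change -0.44, SE 0.070, edgeR adjusted p = 4.53e-03). The other alpha chain gene, Capza1, was at 167 and 169 CPM with DMSO and 182 and 172 CPM with MB-3 (0.08, SE 0.075), and the beta chain gene Capzb had a log2 fold change of 0.022 (SE 0.081). Only Capza2 of the 3 passed the test. Per kilobase, Capza2 was 3.07 and 3.19 times as high as Capza1 with DMSO and 2.20 times as high in each MB-3 library. Capg, the gelsolin-like capping protein of macrophages, was at 1136 and 1114 CPM with DMSO and 1238 and 1114 CPM with MB-3 (0.06, SE 0.075). Gsn, the gene of the severing protein gelsolin, was at 81.7 and 68.7 CPM with DMSO and 95.0 and 84.9 CPM with MB-3, and did not pass (0.26, SE 0.12, edgeR adjusted p = 0.132). It passed without DMSO replicate 1 (log2 fold change 0.44, edgeR adjusted p = 0.0289) and with the replicate number as a block (0.0363).

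Of the 4 genes that bundle, crosslink or pull on filaments, 1 fell and 1 rose. Among all genes tested, 20.2% were lower and 16.9% higher. Lcp1 (ENSMUSG00000021998, chromosome 14 from 75131101 to 75230842) encodes L-plastin, the actin bundler of leukocytes. It was at 752 and 764 CPM with DMSO and 304 and 279 CPM with MB-3, 2.60-fold lower (log2 change -1.38, SE 0.074, edgeR adjusted p = 5.36e-05). Flna, which encodes the crosslinker filamin A, was at 118 and 113 CPM with DMSO and 106 and 122 CPM with MB-3, with no call (-0.014, SE 0.095). Myh9, the heavy chain gene of non-muscle myosin II, was at 48.8 and 44.3 CPM with DMSO and 56.1 and 61.2 CPM with MB-3, 0.33 higher on the log2 scale (SE 0.098, edgeR adjusted p = 0.0397). This call was close to the threshold and was lost without DMSO replicate 2 (0.139), MB-3 replicate 1 (0.0686) or MB-3 replicate 2 (0.170), and in DESeq2 (0.0695). It was also lost with library totals as scaling (0.0632) and in limma on log2(FPKM + 1) (0.140). Fscn1, the gene of the bundler fascin, had 6.47 and 14.2 CPM in the DMSO libraries and 6.76 and 7.41 CPM in the MB-3 libraries, so a single DMSO library stood out. That library also had the higher fibroblast and mesothelial sums of its group, at 112 and 10.1 CPM. In MB-3 replicate 2, where Fscn1 was at 7.41 CPM, these sums were 138 and 10.4 CPM. Their part in the level of Fscn1 was not tested. Its log2 fold change of -0.53 (SE 0.36) was -0.96 without DMSO replicate 1 (edgeR adjusted p = 0.0159) and 0.14 without DMSO replicate 2 (0.714).

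Coronins bind filaments and guide their branching and turnover, and the 3 coronins of the list gave a fall, a rise and no call. Coro1a, the leukocyte coronin, went from 39.8 and 40.7 CPM to 24.2 and 21.9 CPM (log2 change -0.80, SE 0.10, edgeR adjusted p = 1.68e-03). Coro1c (chromosome 5 from 113842436 to 113908758) went from 75.0 and 75.6 CPM to 130.5 and 113 CPM (0.70, SE 0.097, edgeR adjusted p = 2.52e-03). Coro1b was at 178 and 188 CPM with DMSO and 168 and 155 CPM with MB-3 (-0.18, SE 0.082, edgeR adjusted p = 0.137). Coro1a overlaps Bola2, which had 156% of its counts, so its value is uncertain if counting did not use strand. The order of Coro1a and Coro1c turned round: per kilobase, Coro1c was 0.542 and 0.535 times as high as Coro1a with DMSO and 1.55 and 1.49 times as high with MB-3.

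**Figure D3:**
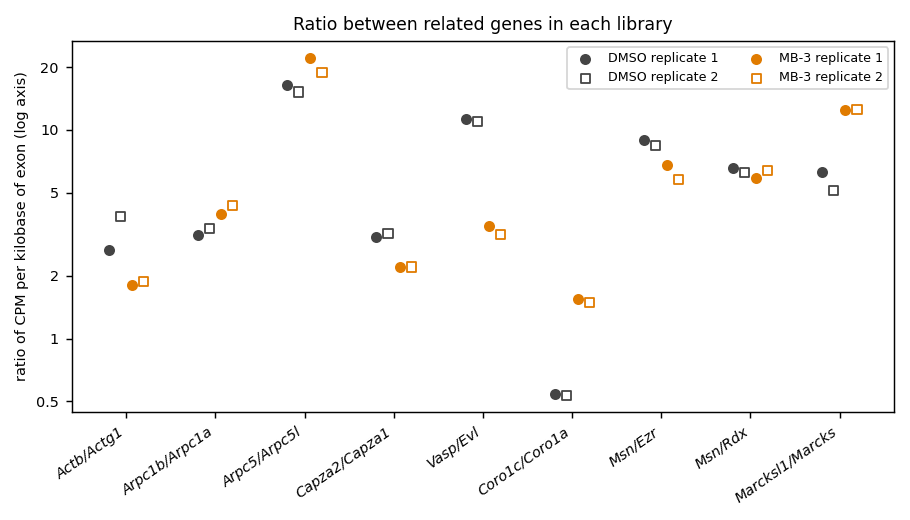
Ratio between 2 related genes in each library, as CPM per kilobase of merged exons on a log axis; circles are replicate 1 and squares replicate 2, dark for DMSO and orange for MB-3. The groups do not overlap for 8 of the 9 pairs, the exception being Msn against Rdx. For single genes such a gap is common, at 70.8% of all genes tested, and the share among ratios of other pairs was not computed. The pairs were chosen after the values were seen.

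The 3 genes that link integrins to actin also parted. Vcl (chromosome 14 from 20929433 to 21033673) encodes vinculin, which reinforces adhesions under load. It was at 42.7 and 38.0 CPM with DMSO and 66.0 and 57.2 CPM with MB-3, 1.53-fold higher (log2 change 0.61, SE 0.11, edgeR adjusted p = 7.40e-03). Zyx, the gene of the adhesion and stress fibre protein zyxin, went from 52.7 and 52.2 CPM to 32.7 and 25.0 CPM (-0.86, SE 0.14, edgeR adjusted p = 4.49e-03). Tln1, which encodes the integrin activator talin-1, was at 57.0 and 54.5 CPM with DMSO and 56.0 and 58.8 CPM with MB-3 (0.041, SE 0.086). Vcl overlaps Ap3m1 and Tln1 overlaps Creb3, each of which had more counts than the member, so both values are uncertain if counting did not use strand.

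The linkers to the membrane held the 2 largest changes of the list. MARCKS proteins bind actin and, when not phosphorylated, the phosphoinositide lipids of the inner membrane leaflet. Marcks (ENSMUSG00000069662, chromosome 10 from 37133375 to 37138920) was at 191 and 233 CPM with DMSO and 28.3 and 27.1 CPM with MB-3. It fell 7.67-fold (log2 change -2.94, SE 0.12, edgeR adjusted p = 2.26e-05). Marcksl1 (ENSMUSG00000047945, chromosome 4 from 129513581 to 129515985), the smaller relative also known as MacMARCKS, was at 479 and 473 CPM with DMSO and 139 and 134 CPM with MB-3. It fell 3.48-fold (-1.80, SE 0.071, edgeR adjusted p = 1.90e-05). The MB-3 libraries were close to each other and far below DMSO in both genes. Per kilobase, Marcksl1 was 6.31 and 5.12 times as high as Marcks with DMSO and 12.4 and 12.5 times as high with MB-3. The Marcksl1 promoter (chr4:129513331-129513580, plus strand, 250 bases before the start) is shown as that of the most strongly lowered member with a RefSeq promoter. Of the 6 motifs searched it held only TGANNNNGC, in capitals, a loose pattern held by 38.7% of genes with a promoter sequence.
Marcksl1: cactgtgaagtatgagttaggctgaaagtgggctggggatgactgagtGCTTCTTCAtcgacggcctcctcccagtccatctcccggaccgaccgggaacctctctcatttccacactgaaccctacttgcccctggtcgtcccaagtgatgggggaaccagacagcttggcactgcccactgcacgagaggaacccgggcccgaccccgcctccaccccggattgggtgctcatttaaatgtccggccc

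Ezrin, radixin and moesin (the ERM proteins) are close relatives that join membrane proteins to filaments, and macrophages use mainly moesin. Msn was at 1103 and 993 CPM with DMSO and 832 and 755 CPM with MB-3, a fall by 0.40 on the log2 scale (SE 0.085, edgeR adjusted p = 0.0126). The fall missed the threshold without DMSO replicate 1 (0.0604) and without MB-3 replicate 2 (0.0526). Rdx was at 123 and 117 CPM with DMSO and 104 and 86.9 CPM with MB-3 (-0.33, SE 0.11, edgeR adjusted p = 0.0525), just outside the threshold, and passed it under 6 of the 12 alternatives with a lowest p of 0.0152. Ezr was at 64.0 and 61.6 CPM with DMSO and 63.9 and 67.7 CPM with MB-3 (0.07, SE 0.085). Per kilobase, Msn was 8.97 and 8.38 times as high as Ezr with DMSO and 6.77 and 5.80 times with MB-3. Against Rdx it was 6.58 and 6.24 times as high with DMSO and 5.89 and 6.38 times with MB-3, and these overlapped.

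A wider list of 122 other actin regulators, of which 108 were tested, had 27 lower and 19 higher genes with a median log2 fold change of 0.03. These shares of 25.0% and 17.6% compare with 20.2% and 16.9% of all genes. Rnd3, which encodes a small GTPase that loosens stress fibres, was at 302 and 247 CPM with DMSO and 27.1 and 22.1 CPM with MB-3, 11.2-fold lower (log2 change -3.48, SE 0.15, edgeR adjusted p = 2.45e-05). Rhob, the gene of an inducible small GTPase found on endosomes, fell by 1.91 on the log2 scale (SE 0.11, edgeR adjusted p = 6.90e-05), from 182 and 168 CPM to 50.6 and 42.5 CPM. Rac1, which drives membrane ruffles through WAVE, went from 109 and 143 CPM to 309.7 and 274 CPM (1.21, SE 0.14, edgeR adjusted p = 1.24e-03).

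Tropomyosins, myosins and crosslinkers had 9 lower and 5 higher genes of 29. These shares of 31.0% and 17.2% compare with 20.2% and 16.9% of all genes tested. Myo1g, a membrane-bound myosin of blood cells, fell from 106 and 94.9 CPM to 29.8 and 27.8 CPM (log2 change -1.80, SE 0.10, edgeR adjusted p = 6.03e-05). Tpm1, a tropomyosin gene, rose from 29.3 and 43.7 CPM to 64.3 and 90.5 CPM (1.09, SE 0.23, edgeR adjusted p = 0.0126). Tpm1 was higher in the second replicate of each group, as were the fibroblast and smooth muscle lists, whose part in its level was not tested.

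WAVE, WASP and formin partners had 7 lower and 3 higher genes of 19 (36.8% and 15.8%). The shares over all genes tested were 20.2% and 16.9%. Other monomer, severing and capping proteins had 2 lower and 1 higher of 13 (15.4% and 7.69%). The riser was Eps8, which encodes a capping and bundling protein, from 21.7 and 22.5 CPM to 106 and 101 CPM, 4.67-fold higher (log2 change 2.22, SE 0.089, edgeR adjusted p = 2.01e-05). Adhesion and membrane proteins had 3 lower and 5 higher of 17 (17.6% and 29.4%). Pdlim5, a PDZ and LIM domain protein bound to actinin, rose from 50.2 and 50.3 CPM to 136 and 117 CPM (1.33, SE 0.10, edgeR adjusted p = 1.96e-04). SRF and its cofactors had 1 lower and 1 higher gene of 5.

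**Figure D4:**
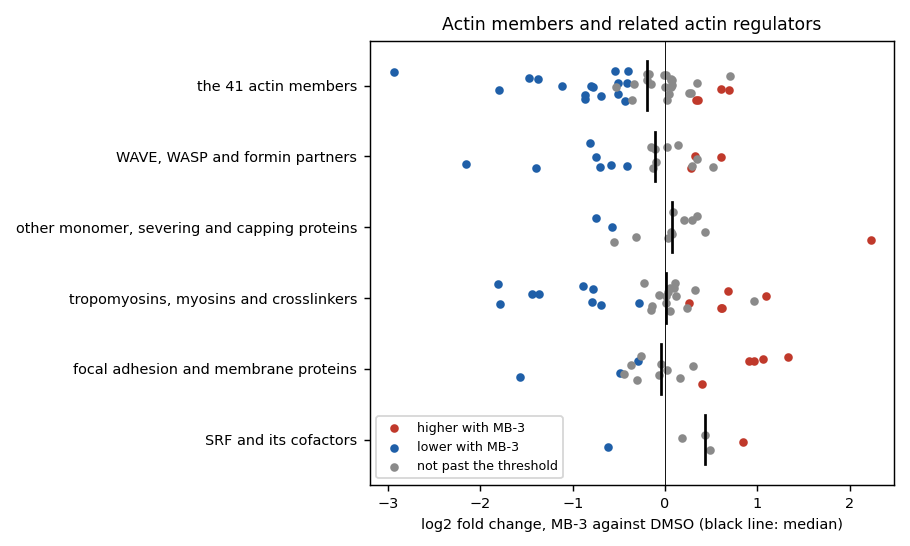
Log2 fold change with MB-3 against DMSO of the 41 actin members and of 5 groups of related actin regulators, each point a gene, blue where lower, red where higher and grey where the test was not passed, with the median as a black line. The members' median is -0.19, and Marcks (-2.94) and Eps8 (2.22) lie furthest out.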

How the data were processed

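RNA from 4 samples (2 DMSO, 2 MB-3) went through oligo(dT) enrichment and strand-specific libraries, per the labels' protocols. The authors deposited raw counts and FPKM per gene and library, per the file headers; HISAT2, StringTie 1.3.0, edgeR, mm10 and GRCm38.p4 appear in the submitters' processing notes. Not given in the sources used here are the annotation release, the strand setting and the treatment of multi-mapping reads. Each column name was matched to a sample title, and gene coordinates are those of the deposited table.

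The test was that of edgeR 4.0.16 on counts, under R 4.3.3 (filterByExpr, TMM factors of 0.966 to 1.02, quasi-likelihood test, group only). Benjamini-Hochberg adjustment covered all 11841 genes, with 0.05 as threshold, and no exact test of 2 against 2 samples can go below p = 0.333. The SE is the size of the log2 fold change over the square root of F. The biological coefficient of variation was 0.126. CPM values of members are TMM-scaled, and those of marker lists use library totals. On simulated data edgeR recovered 80.8% of 2-fold and 99.0% of 4-fold changes over 11703 genes. The simulation gave all genes the same coefficient of variation and changed 200 of them. Changes under 2-fold, the size seen in 15 of the called members, were not simulated, so their recovery is not known. Chi-square per degree of freedom between replicates was 13.0 and 11.1, so neither pair was 1 library deposited again.

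The length behind the authors' FPKM exceeded the whole gene for 3 members (Actb, Actg1 and Pfn1) and was 0.404 to 2.34 times the merged exons of GENCODE M21. Levels between genes therefore use CPM per kilobase of those exons, a choice made after seeing the data in place of the planned FPKM. Members and lists were chosen with earlier results of these data known. All 42 members were to be named, and of the related list the called genes with the 4 highest and the 4 lowest fold changes, given groups apart and 10 CPM or more on average. The range from 100 CPM, the ratio pairs, and the promoters and motifs shown were chosen after values were seen. The top marker of each cell type was also named. Of the genes and groups that these rules give, 1 gene and 1 group are not reported here. Alternatives were other scalings, DESeq2 1.42.0, limma 3.58.1 on log2(FPKM + 1), other filters, a replicate block and leaving out each library.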

Additional observations from a re-analysis of the deposited data

How the results depend on the processing

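Of the 20 called members, 16 stayed past the threshold in the same direction under all 12 alternatives (Actb, Actr2, Arpc1b, Arpc4, Arpc5, Arpc5l, Capza2, Coro1a, Coro1c, Lcp1, Marcks, Marcksl1, Tmsb4x, Vasp, Vcl and Zyx), while Actr3, Msn, Myh9 and Wipf1 did not. Without 1 library in turn, lower members numbered 13 to 16 and higher members 3 to 6, and the lone sample of a group was assumed to vary like the others. The count of all genes higher with MB-3, 1999, ran from 1282 (without MB-3 replicate 1) to 1802 when a library was left out. Replicate numbers are not said to pair the samples, and deviations from the group means correlated across genes at 0.217. With the replicate block 17 members were lower and 6 higher, with Arpc3, Gsn and Rdx added to the calls. As a share of summed FPKM, the members held 1.47% with DMSO and 1.09% with MB-3, in place of 1.81% and 1.34% of counts; the deposited gene lengths enter that share. By deposited FPKM, Actb was at place 6 with DMSO and place 11 with MB-3, Marcksl1 place 3 and place 13, and Cfl1 place 1.

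No called member changed sign under an alternative. Of the members not called, 10 did, and the cause was not tested: 8 had a log2 fold change near 0, and Actg1 (-0.36) and Fscn1 (-0.53) turned when a DMSO library was left out. With library totals the values that changed sign were -0.032 for Arpc1a, -0.041 for Cfl1, -0.022 for Capzb and -0.0015 for Tln1. In limma on log2(FPKM + 1) they were -0.031 for Arpc1a, -0.044 for Cfl1, -0.0196 for Capzb and -0.0018 for Tln1. With no filter Cfl1 was at -2.8e-05. Flna was at 0.0094 with median-of-ratios factors, 0.034 with upper-quartile factors, 0.0074 in DESeq2 and 0.0016 with the stricter filter. With 1 library left out, the values that changed sign ran from -0.64 to 0.046 for Actg1, from -0.074 to 0.10 for Arpc1a, from -0.071 to 0.074 for Cfl1, from -0.038 to 0.26 for Pfn1, from -0.0036 to 0.15 for Cap1, from -0.0126 to 0.14 for Capg, from -0.046 to 0.15 for Capzb, from -0.96 to 0.14 for Fscn1 and from -0.11 to 0.082 for Flna.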
